A study of Mus musculus with 6 samples.

Results

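The genes described here are 41 regulators of chromatin and DNA methylation, chosen by name from the 32285 genes of the count tables and measured in CD8 T cells of B16-OVA tumors and of the lymph nodes (LN) that drain them. B16-OVA is a melanoma line of the mouse carrying ovalbumin as a model antigen. Single-cell RNA sequencing with a 5' kit was done on CD45+ CD3+ CD8+ Tomato+ cells sorted from control mice (CD8-Cre Rosa26Tomato) and CD8-IFNγRKO mice (CD8-Cre Rosa26Tomato IFNgR1flox/flox), both engrafted with the tumor and harvested at day 12 per the labels, with 3 mice pooled into 1 library for each tissue and genotype. Both genotypes carry the same Cre, driven by a CD8α promoter that acts in mature CD8 T cells, and the same reporter, so the groups differ in the floxed gene *Ifngr1*, which encodes the IFNγ receptor chain that binds the ligand. The mice were young adults per the study's methods. Because each group is 1 library of pooled animals, no difference has a replicate check, no test was run, and all intervals are 95% intervals that cover counting error only.

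DNA methylation is copied after replication by *Dnmt1*, which the reader *Uhrf1* brings to newly made DNA, is set anew by *Dnmt3a* and *Dnmt3b*, and is removed by way of oxidation by the *Tet* enzymes. Histone marks are written by methyltransferases and acetyltransferases and removed by demethylases and deacetylases: the Polycomb complex PRC2 (*Ezh1* or *Ezh2* with *Eed* and *Suz12*) silences genes through H3K27 methylation, while *Kmt2* enzymes mark active genes and enhancers on H3K4. Remodelers of the BAF and CHD families move nucleosomes with the energy of ATP. In CD8 T cells these enzymes are known for keeping naive cells quiescent, for silencing memory genes as cells become effectors, and for fixing the exhausted state in tumors. The members were kept in 6 groups by role: 4 DNA methylation writers, 3 *Tet* genes, 4 Polycomb writers, 12 other histone writers, 9 histone erasers and 9 remodelers and architectural proteins.

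After filtering, 8596 and 7043 cells were kept from the tumor libraries of CD8-IFNγRKO and control mice and 6731 and 6639 from the LN libraries, with 93319987, 58344594, 28841136 and 29918156 UMIs (unique molecular identifiers, counts of captured RNA molecules). Any pair of libraries shared 169 to 249 cell barcodes, 1.38% to 2.19% of a library. *Ifngr1* stood at 238 CPM (UMIs of a gene scaled to the same total in every library) in tumor CD8-IFNγRKO against 721 CPM in control, and at 137 against 182 CPM in LN; a read outside the deleted part still counts, so these values do not measure the deletion. Markers of CD8 T cells summed to 5357 to 8760 CPM and those of melanoma cells to 2.51 to 3.86 CPM. Of other cell types, CD4 T cell markers summed to 6.14 to 22.1 CPM and natural killer markers to 30.1 to 40.9 CPM. The natural killer sums were nearly all *Eomes* (29.9 to 40.5 CPM), while *Ncr1* did not pass 0.0643 CPM. B cell markers summed to 249.8 and 241 CPM in LN against 18.7 and 7.59 CPM in tumor, nearly all *Ighm*. Myeloid markers summed to 71.1 and 90.2 CPM in tumor, of which *Fcer1g* made 48.0 and 65.5 CPM, and to 7.49 and 4.28 CPM in LN. All 4 libraries held *Ddx3y* of the Y chromosome (30.3 to 48.1 CPM), while *Xist* did not pass 0.167 CPM, which bears on the X-linked members *Kdm6a* and *Suv39h1*.

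A level below is the pooled CPM of a gene, the scaled sum of its UMIs over the kept cells of a library; a sum cannot tell fewer expressing cells from less RNA per cell. A difference is the log2 ratio of 2 such levels, and a gene is called higher or lower where the ratio reaches 0.5 or -0.5 on at least 100 UMIs over both sides. All 41 members had at least 1 UMI in every library. Between whole libraries, *Tet1* alone fell under the minimum, and that in the comparison of the tumor libraries. Thus 40 members entered that comparison and 41 the others between whole libraries. In some comparisons of part of the cells, other members fell under the minimum too.

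**Figure D1:**
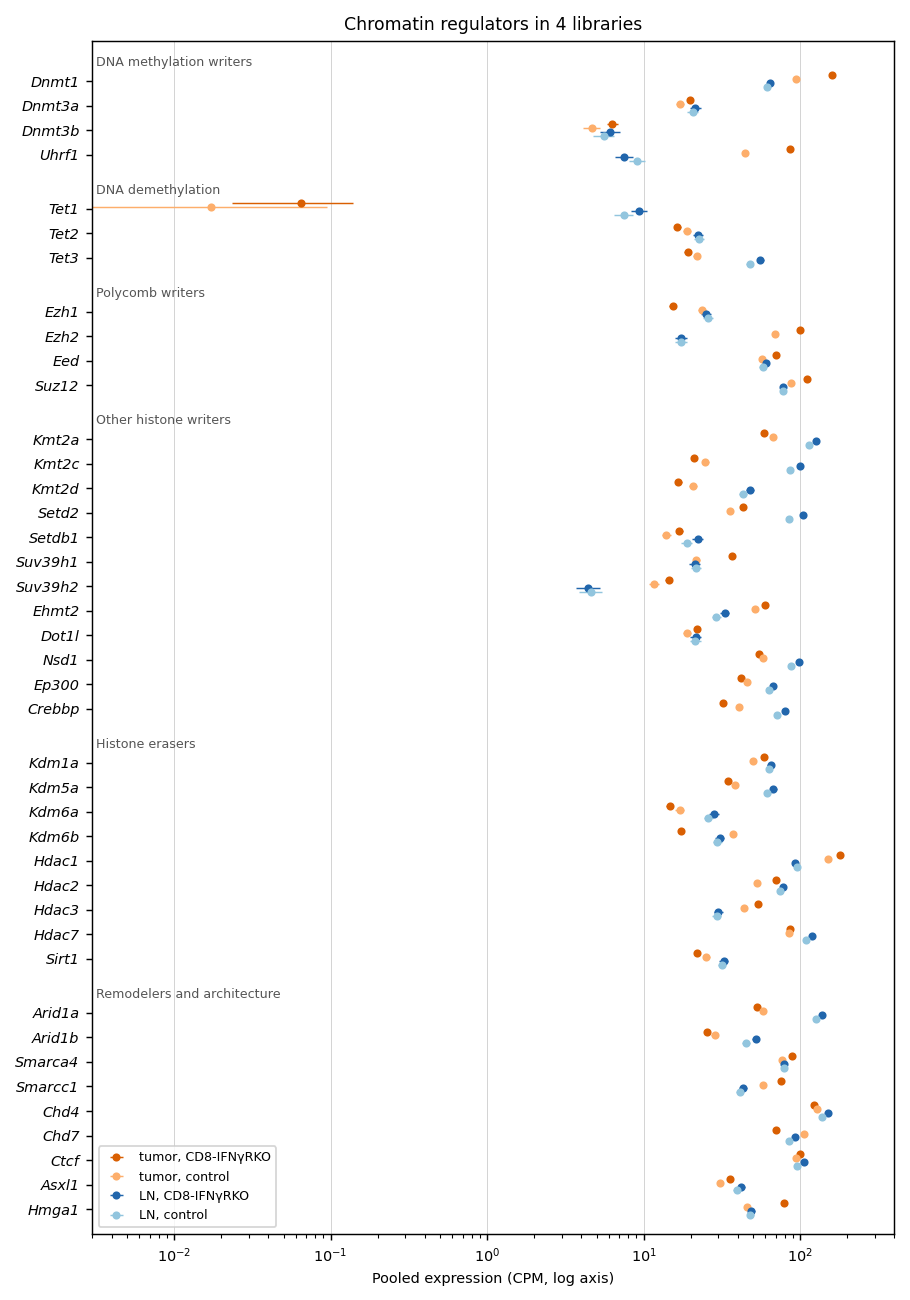
Pooled expression of the 41 members in the 4 libraries, in CPM on a log axis, grouped by role, with points for libraries and bars for 95% Poisson intervals; levels can be read across libraries for 1 gene, not between genes. *Uhrf1* and *Ezh2* lie far to the right in tumor, *Tet1* far to the left, and the lower interval of *Tet1* in control tumor runs past the axis.

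In tumor, 5 of 40 members were called higher in CD8-IFNγRKO TILs (tumor-infiltrating lymphocytes) and 3 lower, shares near those of all 11298 genes compared, 10.8% and 7.83%. The median log2 ratio was 0.21 over the members and 0.02 over all genes. The 5 higher members were *Dnmt1*, *Uhrf1*, *Ezh2*, *Suv39h1* and *Hmga1*, and the 3 lower ones *Ezh1*, *Kdm6b* and *Chd7*. Leaving ribosomal, mitochondrial, TCR and heat shock genes out of the library size called these 8 in the same directions. Heat shock genes summed to 4317 CPM in CD8-IFNγRKO and 1966 CPM in control TILs. In cells without a myeloid marker UMI the counts were again 5 and 3, with the shares of all genes not given. Nuclear-retained RNA (*Malat1*, *Neat1* and *Kcnq1ot1* summed, nearly all of it *Malat1*) also differed, at 1385 CPM in CD8-IFNγRKO and 2223 CPM in control TILs. Its part in these ratios was not tested.

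*Dnmt1* stood at 161 CPM in CD8-IFNγRKO and 93.5 CPM in control TILs, and at 64.0 and 61.6 CPM in LN. The tumor libraries thus differed by 0.78 (0.74 to 0.83) and the LN libraries by 0.06 (-0.04 to 0.15). *Uhrf1*, its partner at the replication fork, stood at 86.4 and 44.3 CPM in tumor and 7.52 and 9.12 CPM in LN. Its ratio was 0.96 (0.90 to 1.03) in tumor and, in the other direction, -0.28 (-0.54 to -0.02) in LN. The de novo enzymes moved less: *Dnmt3a* differed by 0.21 (0.10 to 0.32) and *Dnmt3b* by 0.43 (0.22 to 0.64) in tumor, neither reaching the limit for a call. *Tet2* and *Tet3*, which oxidize methylcytosine, gave -0.22 (-0.33 to -0.10) and -0.19 (-0.29 to -0.08).

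Within PRC2, the paralogous catalytic subunits went opposite ways. *Ezh2* stood at 99.1 CPM in CD8-IFNγRKO and 69.5 CPM in control TILs, with 17.3 and 17.4 CPM in LN. *Ezh1*, the form known from resting cells, stood at 15.3 and 23.6 CPM in tumor and 24.9 and 25.9 CPM in LN. The tumor ratios were 0.51 (0.46 to 0.56) for *Ezh2*, at the limit for a call, and -0.62 (-0.73 to -0.51) for *Ezh1*. The shared subunits *Eed* (0.31, 0.25 to 0.37) and *Suz12* (0.35, 0.30 to 0.39) lay on the side of *Ezh2* and were not called.

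Of the 12 other histone writers, 1 was called in tumor. *Suv39h1*, which writes the H3K9 methylation of heterochromatin, stood at 36.9 CPM in CD8-IFNγRKO and 21.8 CPM in control TILs against 21.3 and 21.6 CPM in LN. Its tumor ratio was 0.76 (0.67 to 0.86), while its paralog *Suv39h2* gave 0.31 (0.18 to 0.45). The H3K4 methyltransferases *Kmt2a* (-0.19), *Kmt2c* (-0.23) and *Kmt2d* (-0.32) and the acetyltransferases *Ep300* (-0.12) and *Crebbp* (-0.35) lay below 0 with intervals that left out 0, and none reached the limit. Such intervals were common in this comparison. They left out 0 for 22 of the 40 members above it and 17 below it, and for 69% of all genes in either direction. *Setd2*, which adds the last methyl group on H3K36, and *Setdb1*, another H3K9 enzyme, each gave 0.28.

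Among the 9 erasers, *Kdm6b* had the ratio farthest from 0 of the 40 members. This demethylase of H3K27, which opposes PRC2, stood at 17.3 CPM in CD8-IFNγRKO and 37.5 CPM in control TILs and at 30.6 and 29.5 CPM in LN. The tumor libraries differed by -1.11 (-1.21 to -1.02) and the LN libraries by 0.05 (-0.08 to 0.19), and the CD8-IFNγRKO TILs were the low library of the 4. *Kdm6a*, the other H3K27 demethylase, gave -0.21 (-0.33 to -0.09). The class I deacetylases *Hdac1*, *Hdac2* and *Hdac3* gave 0.25, 0.41 and 0.29, and *Hdac7*, a class II enzyme, 0.02 (-0.04 to 0.07).

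Of the 9 remodelers and architectural genes, *Chd7* and *Hmga1* were called. *Chd7*, an ATP-dependent remodeler, stood at 70.05 CPM in CD8-IFNγRKO and 106 CPM in control TILs, and at 92.9 and 84.8 CPM in LN. Its ratio was -0.60 (-0.65 to -0.55) in tumor and 0.13 (0.05 to 0.21) in LN. *Hmga1*, a protein that bends AT-rich DNA, stood at 78.3 and 46.0 CPM in tumor and 48.7 and 48.1 CPM in LN, a tumor ratio of 0.77 (0.70 to 0.83); the mouse genome holds processed copies of this gene, so its level is less certain. The 32 members not called ranged from -0.35 for *Crebbp* to 0.43 for *Dnmt3b*, and among them the BAF members from -0.15 for *Arid1b* to 0.37 for *Smarcc1*.

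**Figure D2:**
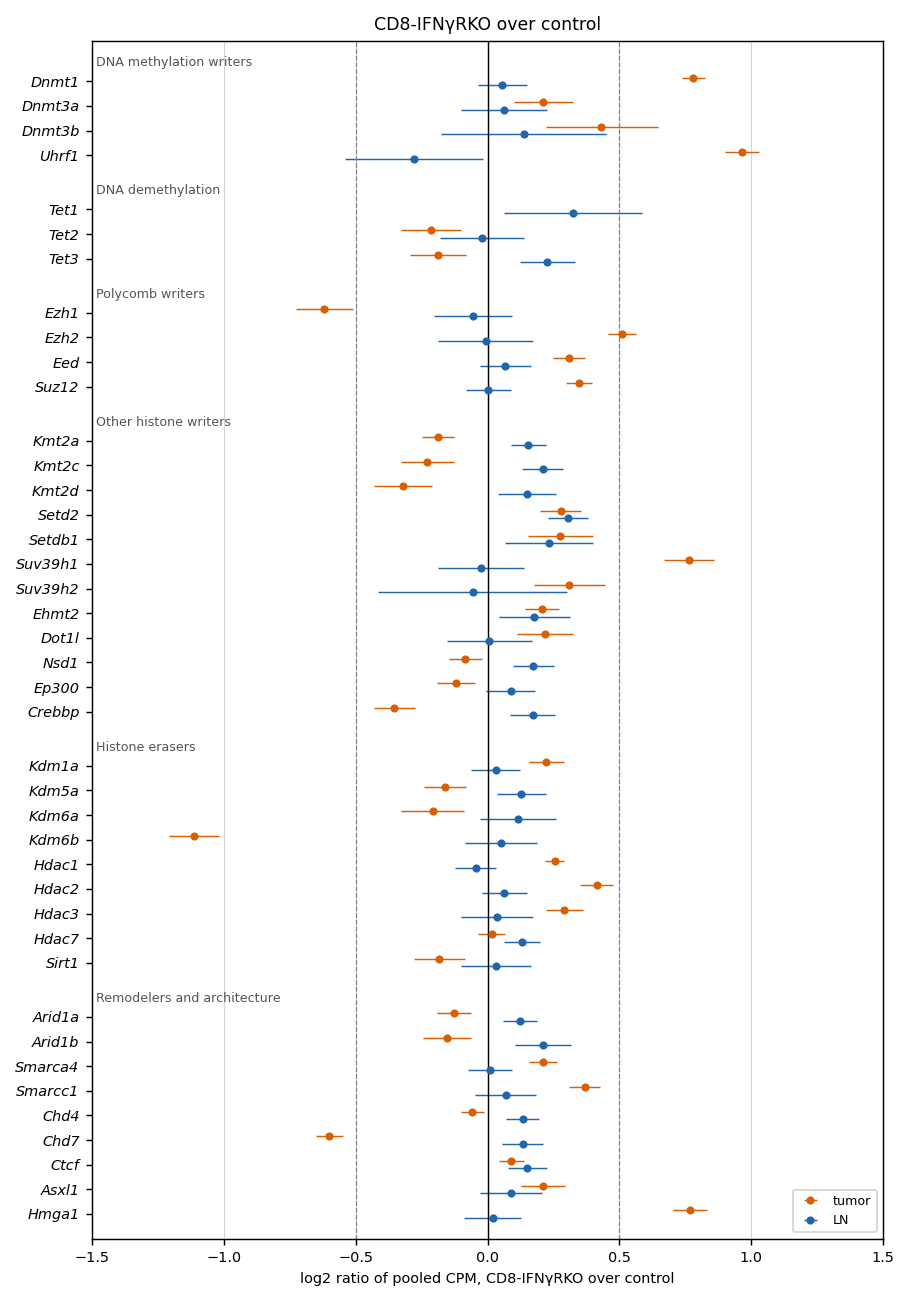
Log2 ratio of pooled CPM, CD8-IFNγRKO over control, for each member in tumor and LN, with 95% intervals for counting error, a solid line at 0 and dashed lines at the limits of a call. Tumor points spread from -1.11 (*Kdm6b*) to 0.96 (*Uhrf1*) while LN points stay between the dashed lines; *Tet1* in tumor, with 6 and 1 UMIs, is left out.

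In LN no member was called in either direction, where 0.952% of 10080 genes were called higher and 1.32% lower. The members leaned to higher values in CD8-IFNγRKO all the same: 34 of 41 ratios were above 0, against 58.8% of all genes, and the median was 0.09 against 0.03. The interval left out 0 above it for 17 members and below it for 1, *Uhrf1*, where 25.2% of all genes had such an interval in either direction. Intervals narrow with the UMIs of a gene, and the share among genes with like UMIs is not given. Of the members, *Setd2* gave the largest difference after *Tet1*, at 105 against 84.6 CPM, a ratio of 0.31 (0.23 to 0.38), and *Tet1* itself gave 0.32 (0.06 to 0.59). *Setdb1* (0.23, 0.07 to 0.40), *Tet3* (0.23, 0.12 to 0.33), *Arid1b* (0.21, 0.10 to 0.32) and *Kmt2c* (0.21, 0.13 to 0.29) followed. Nuclear-retained RNA moved with them, at 5179 CPM in CD8-IFNγRKO and 4636 CPM in control LN; its part in these ratios was not tested. In LN cells with no cycle-gene UMI, a class defined further on, no member was called either, where 1.05% and 1.09% of genes were.

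Between tissues, over all kept cells, *Uhrf1*, *Ezh2*, *Suv39h2* and *Ehmt2* were higher in tumor in both genotypes under either scaling used here. The H3K4 methyltransferases *Kmt2a*, *Kmt2c* and *Kmt2d*, *Setd2*, *Tet1*, *Tet3* and the BAF subunits *Arid1a* and *Arid1b* were lower. In control mice 8 members were called higher and 13 lower in tumor, where 29.9% and 28.2% of 10897 genes were, and in CD8-IFNγRKO mice 11 and 16, where 32.1% and 29.5% of 11277 genes were. The counts depend on scaling. Ribosomal, mitochondrial, TCR and heat shock genes took 21.5% and 21.6% of UMIs in tumor but 34.7% and 35.7% in LN, and leaving them out moved every ratio by -0.29 in control and -0.26 in CD8-IFNγRKO mice. The counts then became 4 higher and 22 lower in control and 9 and 22 in CD8-IFNγRKO mice, with 22.0% and 39.8%, and 24.6% and 38.8%, of all genes. The same 13 and 16 members were lower under both scalings, while 4 and 9 were higher under both. Without the cells that held a myeloid marker UMI, the counts were 7 and 13 in control and 11 and 16 in CD8-IFNγRKO mice. Without those that held a B cell marker UMI, they were 8 and 13, and 11 and 17. The shares of all genes in these cells are not given. A myeloid marker UMI was held by 27.6% and 24.7% of tumor cells (CD8-IFNγRKO, control) and 1.37% and 1.28% of LN cells. For a B cell marker UMI these shares were 14.8% and 4.77% in tumor and 60.9% and 59.7% in LN, so leaving such cells out dropped most LN cells.

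The DNA methylation machinery divided by enzyme. *Uhrf1* was higher in tumor by 3.52 (3.33 to 3.72) in CD8-IFNγRKO and 2.28 (2.10 to 2.46) in control mice, and *Dnmt1* by 1.33 (1.26 to 1.40) and 0.60 (0.53 to 0.68); the control value of *Dnmt1* was not called under the other scaling. *Dnmt3a* and *Dnmt3b* lay between -0.26 and 0.04 in both genotypes. *Tet1* had 6 and 1 UMIs in the CD8-IFNγRKO and control TILs but 269 and 223 UMIs, 9.33 and 7.45 CPM, in the smaller LN libraries. Tumor cells of either genotype thus held hardly any *Tet1*, with ratios of -7.18 (-8.64 to -6.04) and, resting on 1 UMI, -8.76 (-14.07 to -6.27). In LN cells without a B cell marker UMI, *Tet1* stood at 9.52 and 7.44 CPM, close to its level in all LN cells. *Tet3* was lower in tumor as well, at 19.1 and 21.8 CPM against 55.7 and 47.6 CPM in LN, and *Tet2* gave -0.45 and -0.25.

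Of the Polycomb genes, *Ezh2* was higher in tumor by 2.52 (2.39 to 2.65) in CD8-IFNγRKO and 2.0 (1.87 to 2.13) in control mice. *Suz12* gave 0.51 (0.44 to 0.58), not a call under the other scaling, and 0.17 (0.10 to 0.24), and *Eed* 0.22 and -0.02. *Ezh1* was lower in tumor in CD8-IFNγRKO mice (-0.70, -0.83 to -0.57) and at -0.13 (-0.26 to -0.01) in control mice.

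Of the other writers, the largest group, 7 of 12 were lower in tumor in CD8-IFNγRKO and 6 of 12 in control mice. Of all genes 29.5% and 28.2% were lower, and of the *Tet* genes 2 of 3 in each genotype. *Kmt2c*, an H3K4 methyltransferase of enhancers, stood at 21.1 CPM in CD8-IFNγRKO and 24.7 CPM in control TILs and at 99.5 and 86.1 CPM in LN. Its ratios, -2.24 (-2.32 to -2.16) and -1.80 (-1.90 to -1.71), were the lowest of any member but *Tet1*. *Kmt2d* gave -1.53 and -1.06, *Kmt2a* -1.10 and -0.75, *Setd2* -1.29 and -1.26, the H3K36 enzyme *Nsd1* -0.84 and -0.59, and the acetyltransferase *Crebbp* -1.32 and -0.79. Going the other way were *Suv39h2* (1.70 and 1.34) and *Ehmt2* (0.85 and 0.82), both H3K9 methyltransferases, under either scaling. *Suv39h1* gave 0.80 (0.67 to 0.92) in CD8-IFNγRKO and 0.01 (-0.13 to 0.15) in control mice.

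Erasers and remodelers were mixed. *Hdac1* and *Hdac3*, core deacetylases of corepressor complexes, were higher in tumor in both genotypes (0.94 and 0.64, 0.85 and 0.59 for CD8-IFNγRKO and control), though in control mice not under the other scaling. The demethylases *Kdm5a* (-0.97 and -0.68) and *Kdm6a* (-0.94 and -0.61) were lower in both. *Kdm6b* split by genotype, at -0.82 (-0.94 to -0.70) in CD8-IFNγRKO and 0.34 (0.23 to 0.46) in control mice. Of the BAF subunits, *Arid1a* (-1.36 and -1.12) and *Arid1b* (-1.03 and -0.67), which define one form of the complex, were lower in tumor, the ATPase *Smarca4* lay at 0.15 and -0.05, and the core subunit *Smarcc1* was higher at 0.81 and 0.51, in control mice not under the other scaling. *Hmga1* gave 0.68, not a call under the other scaling, and -0.06. *Ep300* (-0.69) and *Sirt1* (-0.55), an NAD-dependent deacetylase, were called lower in CD8-IFNγRKO mice, and *Hdac2* (-0.50) in control mice. In control mice *Ep300* (-0.48) and *Sirt1* (-0.34) were called lower under the other scaling only. With all genes in the library size, the 13 members called in neither genotype ranged from -0.46 (*Hdac7* in CD8-IFNγRKO mice) to 0.33 (*Chd7* in control mice). Among them were the insulator protein *Ctcf*, *Chd4*, *Dot1l* and *Kdm1a*. Under the other scaling, *Dnmt3a*, *Dnmt3b*, *Tet2*, *Setdb1*, *Kdm1a*, *Hdac7* and *Asxl1* of these members were called lower in control mice. *Tet2*, *Setdb1*, *Hdac7*, *Chd4*, *Chd7* and *Asxl1* were called lower in CD8-IFNγRKO mice under that scaling.

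**Figure D3:**
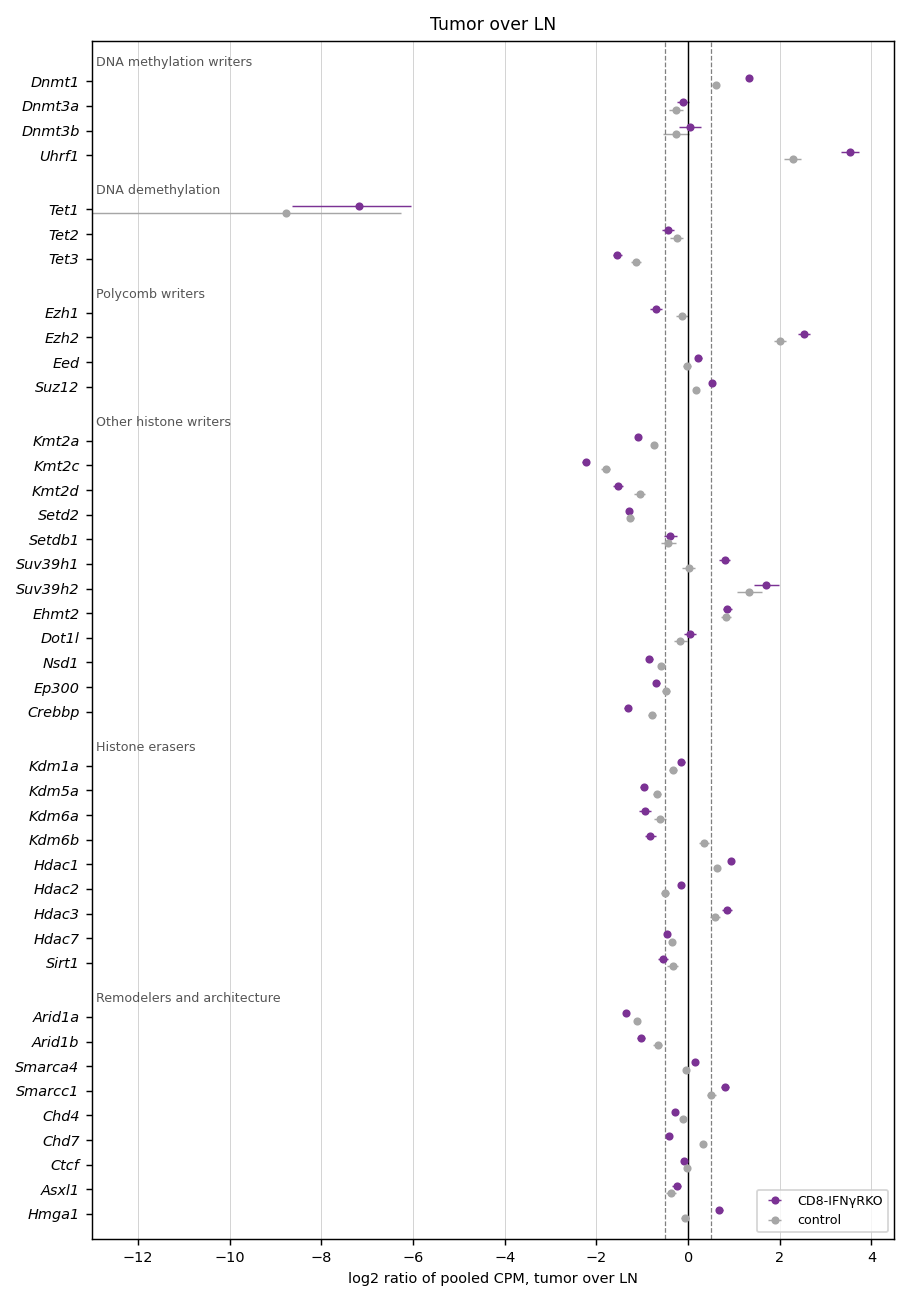
Log2 ratio of pooled CPM, tumor over LN, for each member in CD8-IFNγRKO and control mice, with 95% intervals for counting error, a solid line at 0 and dashed lines at the limits of a call. *Uhrf1* and *Ezh2* lie farthest to the right and *Tet1* and *Kmt2c* farthest to the left; the lower interval of *Tet1* in control, from 1 UMI, runs past the axis.

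The nuclear-retained RNAs differed between tissues along with these members. They summed to 1385 CPM in CD8-IFNγRKO and 2223 CPM in control TILs and to 5179 and 4636 CPM in LN. *Malat1* alone made 1352 and 2189 CPM of these sums in TILs and 5087 and 4552 CPM in LN. A ranking by the sum is thus close to a ranking by *Malat1*, and the nuclear fraction of a cell was not measured. Within each library, cells were ranked by the share of their UMIs from the nuclear-retained RNAs. The top 33.3% of cells (called nuclear-rich) were set against the bottom 33.3% (called nuclear-poor). Members called higher in the nuclear-rich cells numbered 15 and 14 of 40 in tumor (CD8-IFNγRKO, control) and 11 and 8 of 40 in LN, where 20.1%, 14.8%, 9.63% and 9.88% of all genes were. Members called lower numbered 4 and 7 in tumor and 1 and 1 in LN, against 8.39%, 9.69%, 1.18% and 1.88% of all genes. *Kmt2c* was higher in the nuclear-rich cells of every library (1.00 and 1.18 in tumor, 0.58 and 0.87 in LN), as was *Kmt2a* (0.92, 0.82, 0.55 and 0.68). *Uhrf1* was lower in all 4 (-0.79, -1.35, -1.72 and -1.77). Cycle-high cells, a class defined further on, moved with the split: they were 32.8% of nuclear-rich against 54.5% of nuclear-poor cells in CD8-IFNγRKO and 10.9% against 32.2% in control TILs, and 0.135% against 0.852% and 0.0469% against 1.03% in LN; their part was not tested. In tumor the nuclear-rich cells were also shallower, with median UMIs of 5429 against 13369 in CD8-IFNγRKO and 5118.5 against 9312.5 in control mice, and in LN the medians were 3657.5 against 3945.5 and 3920 against 4183.5.

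Setting the nuclear-rich tumor cells (0.311% and 0.431% of UMIs from the nuclear-retained RNAs in CD8-IFNγRKO and control) against the nuclear-poor LN cells (0.276% and 0.242%) brought the shares closer and turned their order. Members lower in tumor then numbered 7 of 40 in CD8-IFNγRKO mice, in place of 16, and 6 in control mice, in place of 13, where 18.9% and 20.2% of all genes were lower. Members higher in tumor numbered 8 and 7, where 31.6% and 30.8% of all genes were higher. *Kmt2c* gave -1.28 (-1.44 to -1.13) and -0.78 (-0.96 to -0.61), *Arid1a* -0.87 (-0.98 to -0.75) and -0.72 (-0.85 to -0.59), and *Setd2* -0.58 (-0.71 to -0.44) and -0.61 (-0.77 to -0.45). *Kmt2a* came to -0.31 (-0.42 to -0.20) and 0.06 (-0.07 to 0.18). *Tet1*, lower in tumor over all cells, had 2 and 0 UMIs in these tumor cells and 71 and 76 UMIs in these LN cells. It fell under the minimum and so left these counts. *Ezh2* stayed higher in tumor by 2.19 and 1.17 and *Uhrf1* by 2.15 and 0.67.

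**Figure D4:**
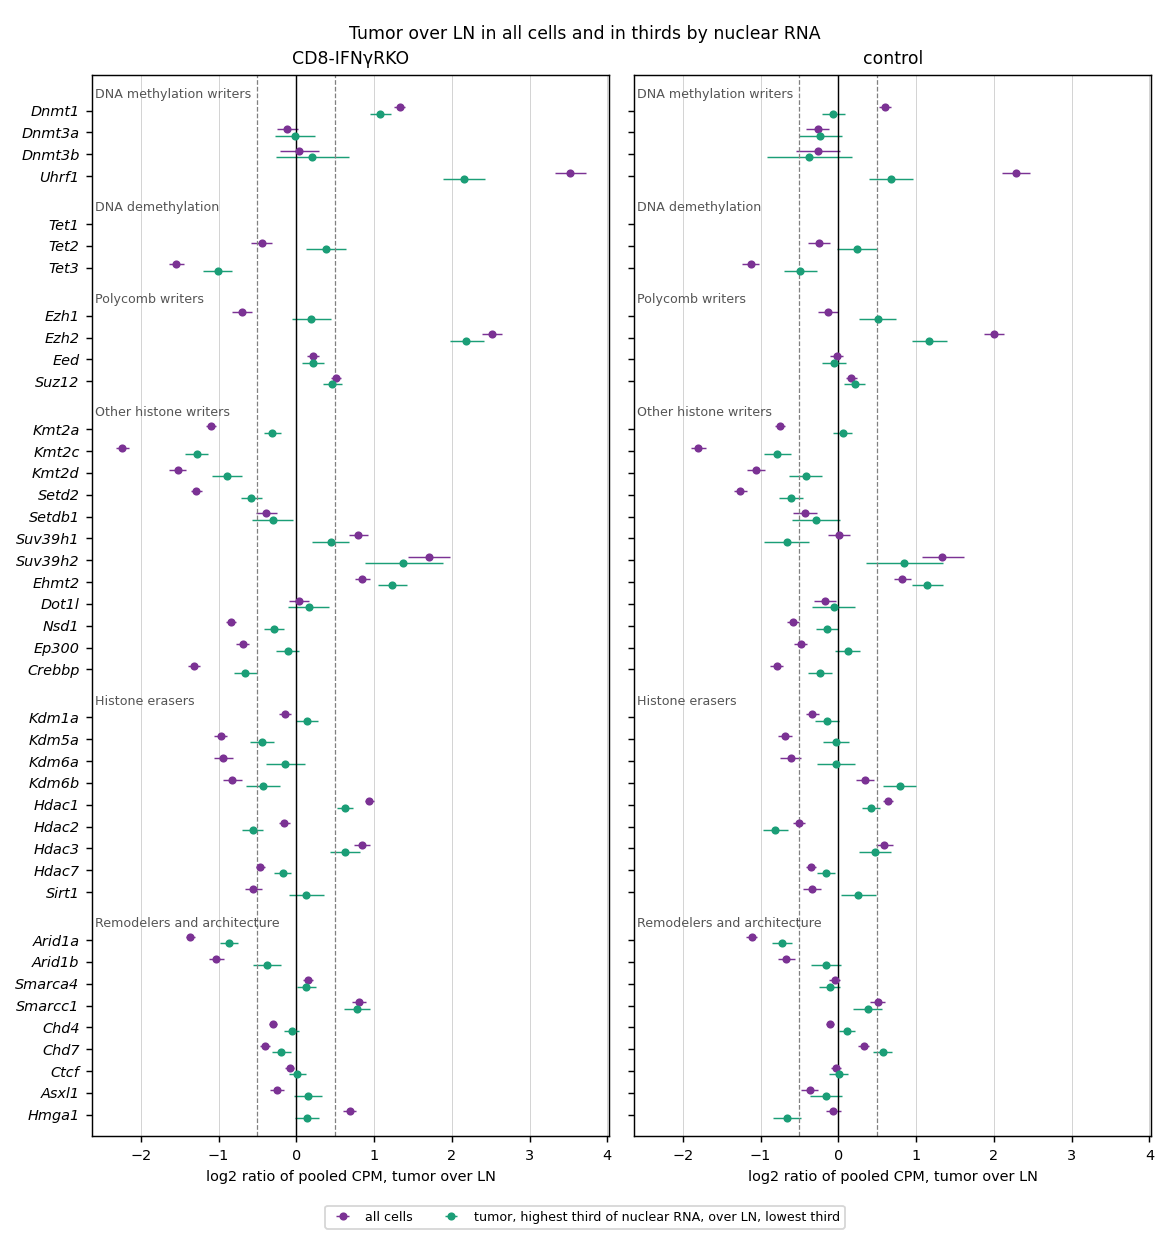
Log2 ratio of pooled CPM, tumor over LN, in all cells and between nuclear-rich tumor cells and nuclear-poor LN cells, by genotype, with 95% intervals for counting error, a solid line at 0 and dashed lines at the limits of a call. *Kmt2a* moves from -1.10 to -0.31 in CD8-IFNγRKO mice and *Kmt2c* from -2.24 to -1.28, while *Ezh2* stays right of the upper limit; *Tet1* is left out for its few UMIs.

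Several members are made as cells replicate, so TILs were also split by cycle genes. Each cell was thinned to 1600 UMIs and the UMIs of 20 S-phase and 20 G2M genes, none of them a member, were counted; cells with 5 or more are called cycle-high, and S-leaning or G2M-leaning by the larger sum. Cycle-high cells made up 45.9% (44.8 to 47.0) of 8318 CD8-IFNγRKO and 21.7% (20.7 to 22.7) of 6342 control TILs, against 0.374% and 0.406% of LN cells (25 and 26 cells), by Clopper-Pearson intervals. Cells with 4 or 5 such UMIs, at the edge of the class, were 12.2% and 6.26% of TILs. Cells with none numbered 1663 and 2622. The cycle-high cells were also deeper before thinning, with median UMIs of 13517.5 and 13085 (S-leaning and G2M-leaning) against 5469 in cells with none in CD8-IFNγRKO TILs. Free RNA in a droplet also counts toward a class, and its part was not tested.

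Against cells with no cycle UMI, the cycle-high TILs had 12 of 40 members higher in each genotype, where 15.1% of genes in CD8-IFNγRKO and 15.3% in control were higher, and 3 and 2 lower, where 15.9% and 12.1% were. *Uhrf1* stood at 15.4 CPM in cells with no cycle UMI and 113 CPM in cycle-high cells of CD8-IFNγRKO mice, and at 10.2 and 88.0 CPM in those of control mice, ratios of 2.87 (2.65 to 3.10) and 3.11 (2.88 to 3.34). *Suv39h1* stood at 7.45 and 50.8 CPM, and at 5.30 and 45.6 CPM (2.77 and 3.11). *Ezh2* (1.93 and 2.35), *Dnmt1* (1.72 and 1.88) and *Suv39h2* (1.93 and 1.27) came next, and *Suz12*, *Smarcc1* and *Hmga1* lay between 0.86 and 0.96 in both. *Ezh1* was lower in cycle-high cells at -0.90 (-1.10 to -0.69) and -0.72 (-0.92 to -0.52), opposite to *Ezh2*. In the 25 and 26 cycle-high LN cells 12 and 13 of 40 members were higher, where 23.2% and 22.6% of genes were, and 12 and 6 lower, where 27.4% and 27.9% were. The minimum is counted over both sides, so a gene could pass it on the cells with no cycle UMI alone. In S-leaning and G2M-leaning LN cells of CD8-IFNγRKO mice, *Dnmt3b* had 0 and 0 UMIs, *Sirt1* 1 and 0, and *Kdm6b* 2 and 1. The counts of lower members in LN thus include genes at the floor and do not show a lower level of each. In these cycle-high LN cells *Uhrf1* reached 213 and 187 CPM, with 65 of the 217 *Uhrf1* UMIs of the CD8-IFNγRKO LN library, and *Ezh2* 213 and 193 CPM.

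Within the cycle-high TILs the phases differed for few members, 3 higher and 1 lower in S-leaning cells in each genotype, where 4.5% and 3.98% of genes in CD8-IFNγRKO and 5.51% and 4.39% in control were. *Uhrf1* (0.51 and 0.68) and *Hdac2* (0.52 and 0.73) were higher in S-leaning cells of both genotypes. *Dnmt3b* gave 0.80 (0.47 to 1.12) in CD8-IFNγRKO, and *Ehmt2* -0.53 (-0.63 to -0.42).

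**Figure D5:**
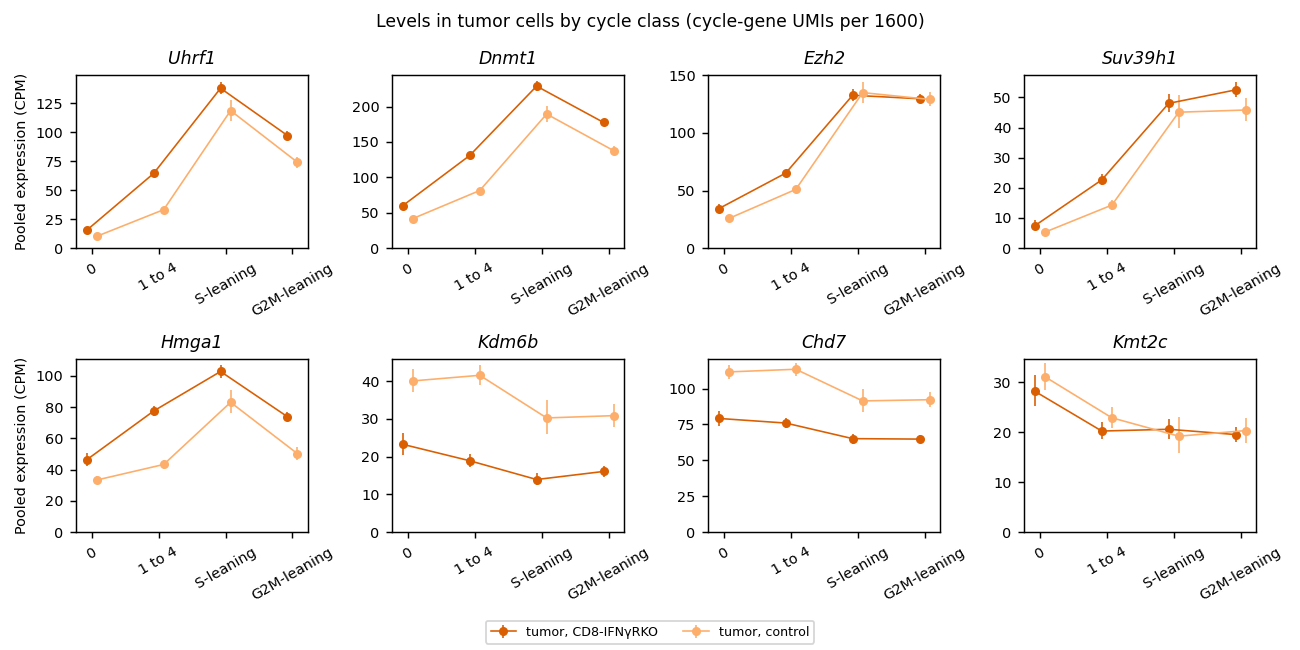
Pooled expression (CPM) of 8 members in tumor cells by cycle class: 0 cycle UMIs, 1 to 4, S-leaning and G2M-leaning, with 95% Poisson intervals, for CD8-IFNγRKO and control TILs. *Ezh2* and *Suv39h1* lie close together in the S-leaning and G2M-leaning classes, whereas *Kdm6b* and *Chd7* stay apart in every class.

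Within the S-leaning and G2M-leaning classes, the genotype ratios of *Uhrf1*, *Dnmt1*, *Ezh2* and *Suv39h1* were smaller than in all TILs, while *Kdm6b* stayed near its value. In S-leaning TILs *Ezh2* stood at 133 CPM in CD8-IFNγRKO and 135 CPM in control, and the ratio was -0.02 there and 0.01 in G2M-leaning TILs, against 0.51 in all TILs. *Suv39h1* came to 0.09 and 0.20 in these classes, against 0.76, *Uhrf1* to 0.22 and 0.39, against 0.96, and *Dnmt1* to 0.27 and 0.37, against 0.78. *Hmga1* came to 0.31 and 0.56, against 0.77, and was the member still called higher in G2M-leaning TILs. In cells with 1 to 4 cycle UMIs *Uhrf1* gave 0.96, *Hmga1* 0.84, *Dnmt1* 0.69 and *Suv39h1* 0.67. In cells with no cycle UMI the ratios were 0.41 for *Ezh2*, 0.49 for *Suv39h1*, 0.60 (0.29 to 0.91) for *Uhrf1* and 0.52 (0.37 to 0.68) for *Dnmt1*. *Dnmt3b*, not called over all TILs, was called higher there at 0.76. It stood at 6.73 CPM in CD8-IFNγRKO and 3.98 CPM in control cells, on 75 and 69 UMIs. *Kdm6b* was lower in CD8-IFNγRKO cells of every class: its ratios were -0.78 in cells with none, -1.14 in cells with 1 to 4 UMIs, -1.12 in S-leaning and -0.94 in G2M-leaning cells. *Chd7* gave -0.49, -0.58, -0.49 and -0.51 in the same order. *Ezh1*, the third member called lower over all TILs, gave -0.28, -0.53, -0.62 and -0.35. It was thus called lower in cells with 1 to 4 UMIs and in S-leaning cells only. Members called higher and lower numbered 3 and 2 in cells with none (7.65% and 4.66% of all genes), 4 and 3 with 1 to 4 UMIs (9.04% and 6.38%), 0 and 2 in S-leaning cells (4.16% and 4.95%) and 1 and 2 in G2M-leaning cells (4.9% and 4.82%). The lower members in cells with none were *Kdm6b* and *Suv39h2*. *Suv39h2*, higher but not called over all TILs, stood there at 4.85 CPM in CD8-IFNγRKO and 7.55 CPM in control cells (-0.64), on 54 and 131 UMIs.

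The tissue ratios also changed in cells with no cycle UMI. *Suv39h1* stood at 7.45 and 5.30 CPM in such TILs of CD8-IFNγRKO and control mice and at 20.5 and 20.1 CPM in such LN cells. It was thus lower in tumor by these cells, -1.46 (-1.82 to -1.12) and -1.92 (-2.27 to -1.60), where over all cells it had been higher or level. *Dnmt1* came to 0.02 and -0.41, whereas *Uhrf1* (1.86 and 0.84) and *Ezh2* (1.24 and 0.90) remained higher in tumor. *Suv39h2*, called higher in tumor in both genotypes over all cells, was not called in these cells of CD8-IFNγRKO mice, at 4.85 CPM in tumor and 4.40 CPM in LN. In control mice it stayed called higher, at 7.55 and 4.33 CPM. In all, 5 members were higher and 16 lower in CD8-IFNγRKO mice, where 24.6% and 27.9% of genes were, and 4 and 17 in control mice, where 25.9% and 29.8% were. *Kmt2c* gave -1.82 and -1.47 and *Setd2* -1.31 and -1.24 in these cells.

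The promoters of *Uhrf1*, *Dnmt1*, *Ezh2* and *Suv39h1* are shown because these are 4 of the 5 members called higher in CD8-IFNγRKO TILs, and all 4 were higher in cycle-high cells of both genotypes by more than the fifth, *Hmga1*. The sequences are the 250 bases before the first start site listed by RefSeq on GRCm38.p6, 5′ to 3′ on the strand of the gene: chr17:56303087-56303336 (+) for *Uhrf1*, chr9:20959889-20960138 (-) for *Dnmt1*, chr6:47595031-47595280 (-) for *Ezh2* and chrX:8074761-8075010 (-) for *Suv39h1*. Where a gene has several listed starts, this is the one farthest upstream. Whether CD8 T cells use that start was not measured, and windows at other starts were not searched. Capitals mark matches on either strand to CCAAT, the box bound by NF-Y, and to TTTNNCGC, a core of E2F sites.
Uhrf1: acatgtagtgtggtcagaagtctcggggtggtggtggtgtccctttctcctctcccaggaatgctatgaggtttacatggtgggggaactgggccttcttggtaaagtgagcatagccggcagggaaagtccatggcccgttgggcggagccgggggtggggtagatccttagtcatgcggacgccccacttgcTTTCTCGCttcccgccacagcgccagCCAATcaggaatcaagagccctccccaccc
Dnmt1: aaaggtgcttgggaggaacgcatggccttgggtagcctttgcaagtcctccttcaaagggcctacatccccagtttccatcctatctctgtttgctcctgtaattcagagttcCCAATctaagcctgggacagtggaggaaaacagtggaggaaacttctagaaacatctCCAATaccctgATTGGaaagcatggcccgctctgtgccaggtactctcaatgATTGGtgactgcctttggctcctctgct
Ezh2: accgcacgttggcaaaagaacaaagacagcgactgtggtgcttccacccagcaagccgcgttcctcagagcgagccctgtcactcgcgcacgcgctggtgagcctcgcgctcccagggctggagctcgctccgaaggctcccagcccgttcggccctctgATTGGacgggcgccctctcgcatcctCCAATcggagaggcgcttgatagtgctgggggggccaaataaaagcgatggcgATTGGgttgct
Suv39h1: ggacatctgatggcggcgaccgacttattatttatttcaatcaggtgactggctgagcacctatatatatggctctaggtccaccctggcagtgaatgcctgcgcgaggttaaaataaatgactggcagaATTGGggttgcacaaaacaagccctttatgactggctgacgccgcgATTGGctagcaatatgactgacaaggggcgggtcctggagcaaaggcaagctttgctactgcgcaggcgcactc

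All 4 windows held CCAAT on one of the strands, and that of *Uhrf1* held TTTNNCGC as well, without overlap. Of the other members named above as higher in cycle-high cells, *Suz12* held both, and *Suv39h2*, *Smarcc1* and *Hmga1* held neither. A link between these letters and the cycle was not tested. Of the 35 members with a promoter in the table, 8 held CCAAT, against 34.5% of 27018 promoters of the same length, which is a smaller share of the members (22.9%). TTTNNCGC was found in 4 of 35 members (*Uhrf1*, *Suz12*, *Ep300* and *Asxl1*) and 4.40% of all promoters. The CHR letters TTTGAA, a G2M element, were in 6 of 35 members and 16.3% of all. The core of the interferon-stimulated response element (TTTC, any 2 bases, TTTC) was in 0 of 35 and 3.05% of all. A match is a run of letters in 1 window a gene and not a measured site.

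The study turns on TILs with *Tcf7*, a factor of stem-like cells, so members were compared between TILs with and without a *Tcf7* UMI after thinning: 471 against 7847 cells in CD8-IFNγRKO and 200 against 6142 in control mice. A gate on 1 UMI is a sampling of *Tcf7* and not a cell type, and its cells were shallower, with median UMIs of 3904 against 10099 and 3650.5 against 7013. In the *Tcf7* cells 8 members were higher and 8 lower in CD8-IFNγRKO mice, where 17.7% and 23.1% of genes were, and 4 and 6 in control mice, where 15.5% and 25.9% were. *Kmt2c* (0.80 and 0.73) and *Kmt2d* (0.74 and 0.72) were higher in both genotypes. *Uhrf1* (-1.43 and -1.23), *Dnmt1* (-1.08 and -0.80), *Ezh2* (-0.86 and -1.01) and *Hdac1* (-0.73 and -0.82) were lower in both. With the gate on all UMIs in place of thinned ones, 3 members were higher and 3 lower in CD8-IFNγRKO TILs. In control TILs 0 were lower, and *Uhrf1* gave -0.29, *Dnmt1* -0.19, *Ezh2* -0.24 and *Hdac1* -0.45. *Kmt2c* and *Kmt2d* stayed called higher in both genotypes under that gate, for which the shares of all genes are not given. The share of cycle-high cells moved with the gate on thinned UMIs, at 11.0% against 48.0% in CD8-IFNγRKO and 4.0% against 22.3% in control TILs. Among cells with no cycle UMI, *Hdac1* was lower still at -0.63 (-0.94 to -0.33) and -0.87 (-1.34 to -0.44), and *Kmt2d* higher at 1.02 (0.53 to 1.48) and 0.90 (0.26 to 1.49), in counts of 4 higher and 5 lower of 37 members, and 5 and 3 of 38, where 13.9% and 22.7%, and 15.7% and 24.1%, of genes were. The control ratios of *Ezh2* (-0.24, -1.17 to 0.54), *Dnmt1* (-0.18, -0.86 to 0.43) and *Kmt2c* (0.39, -0.27 to 0.98) were not called in these cells, and that of *Uhrf1* was -0.62 (-2.51 to 0.76). In such cells of CD8-IFNγRKO mice, all 3 DNA methylation writers compared, *Dnmt1*, *Dnmt3a* and *Uhrf1*, were called lower (-3.21 to -0.70), as was 1 Polycomb writer (-0.91). The *Tcf7* side was only 263 cells with median UMIs of 3791, and the intervals of these ratios are not given. Over all cells with no cycle UMI, with or without a *Tcf7* UMI, the 3 writers had 669, 224 and 172 UMIs. Their UMIs on the *Tcf7* side alone are not given. The minimum is counted over both sides, so a gene could pass it with few UMIs in the *Tcf7* cells. The pooled UMIs therefore do not show how well these 3 calls are supported.

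In LN, cells with 2 or more UMIs of *Ccl5*, a chemokine of memory and effector CD8 T cells, were set against cells with none, 228 against 6319 cells in CD8-IFNγRKO and 256 against 5971 in control mice. No member was higher and 8 were lower in the *Ccl5* cells of CD8-IFNγRKO mice, where 5.43% and 17.7% of genes were, and 3 and 3 in control mice, where 6.84% and 14.4% were. *Tet1*, almost absent from TILs, stood at 4.62 against 9.67 CPM in CD8-IFNγRKO and 2.57 against 7.70 CPM in control LN. These ratios, -1.07 (-2.53 to 0.08) and -1.58 (-3.47 to -0.20), rest on 6 and 4 UMIs in the *Ccl5* cells. *Kmt2c* was lower in both (-0.61 and -0.53). *Uhrf1* was higher in the *Ccl5* cells of control mice by 1.37 (0.81 to 1.90) and gave -0.47 (-1.80 to 0.60) in CD8-IFNγRKO mice, on 34 and 7 UMIs; the cycle-high share was 1.95% and 0%.

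Among 137 further chromatin genes in 6 lists, of which 131 were measured well enough in tumor, 13 were higher and 4 lower in CD8-IFNγRKO TILs, next to the 10.8% and 7.83% of all genes. Of the 10 DNA methylation partners compared, 3 were higher and 2 lower: *Cdca7* (46.1 against 23.3 CPM, 0.98) and *Hells* (113 against 60.0 CPM, 0.92), which form a remodeler for methylation of silent DNA, were the highest, and *Gadd45b* (109 against 172 CPM, -0.66), known in demethylation, and *Uhrf2* (-0.52), the paralog of *Uhrf1*, the lower ones. Of 19 Polycomb partners, 3 were higher and 1 lower, with the PRC2 accessory proteins *Phf19* at 1.11 (0.84 to 1.38) and *Phf1* at -0.97 (-1.08 to -0.86) at the ends and *Cbx2*, a subunit of PRC1, at 0.80. Among 30 other writers 2 were higher, the arginine methyltransferase *Prmt5* (0.87) and *Wdr5* (0.55), a core subunit of H3K4 methyltransferases. Of 23 other erasers 1 was lower, the H3K4 demethylase *Kdm5b* (-0.69), and of 27 other remodelers 0 were called. Of 22 readers and architectural genes 5 were higher, led by *Hmgn1* (1.18) and *Cbx5* (0.63), the heterochromatin protein HP1α. In LN, of 130 genes compared, 0 were higher and 1 was lower, *Gadd45b* at 20.8 against 31.2 CPM (-0.58).

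Between tissues these lists had 24 higher and 53 lower of 131 in CD8-IFNγRKO and 21 and 48 in control mice, next to 32.1% and 29.5%, and 29.9% and 28.2%, of all genes. These values are over all cells with all genes in the library size. They are not given under the other scaling or between nuclear-rich tumor and nuclear-poor LN cells, settings that moved the counts of the members. Of the DNA methylation partners 5 of 10 were higher in tumor in each genotype and 2 and 1 lower, with *Hells* at 3.51 and 2.11 and *Gadd45b* at 2.39 and 2.47. Other writers were mostly lower, 17 of 30 in each, with *Ash1l* (-1.66 and -1.23), an H3K36 enzyme, and *Kat6b* (-1.55 and -0.86), an acetyltransferase, lowest in CD8-IFNγRKO mice, and *Nsd2* (3.23 and 2.57) and *Dpy30* (1.32 and 0.88) highest. Of the erasers, 13 and 11 of 23 were lower, *Kdm7a* at -2.01 and -1.54 and *Kdm5b* at -1.77 and -0.94, while *Hdac6* (1.04 and 0.74) and *Sirt2* (0.96 and 1.25) were higher. The remodelers *Chd3* (-2.80 and -2.60) and *Smarca2* (-1.87 and -1.48), the genome organizer *Satb1* (-2.92 and -2.56) and the nucleosome protein *Hmgn1* (-1.54 and -2.57) stood lower in tumor, and the chromatin proteins *Hmgb3* (3.87 and 3.08) and *Hmgb2* (2.97 and 2.36) and the PRC2 partner *Phf19* (2.64 and 1.83) higher.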

How the data were processed

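Single-cell RNA sequencing of 4 libraries was used, 1 per tissue and genotype, each from 3 pooled mice. The authors mapped reads with Cell Ranger 6.0.0 to mm10 and the deposited values are raw UMI counts of each gene in each barcode, limited to barcodes called cells and with no normalization. TCR contigs of the tumor libraries were not used here.

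Barcodes were kept that held from 200 up to 6000 genes, a mitochondrial share of no more than 3%, no single gene over 20% of the total, *Cd2*, *Cd8a* and *Cd8b1* with 1 UMI or more, and fewer than 3 myeloid markers. The work used scipy 1.17.1, numpy 2.4.6, matplotlib 3.10.9 and pandas 2.3.3 under Python 3.11.15. Doublets were not removed, since the study's methods name no such step; leaving out the 8% of cells with most UMIs was an alternative. Counts were summed over cells. Exact 95% intervals were Clopper-Pearson for a share, Poisson for a CPM value and conditional binomial for the ratio of a pair of libraries; they cover counting error only. Cycle classes and gates used cells thinned to 1600 UMIs, which left out 278 and 701 tumor cells and 41 and 237 LN cells (CD8-IFNγRKO, control).

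Precision follows the UMIs: the tumor ratio of *Dnmt1*, from 14992 and 5455 UMIs, has a narrow interval, that of *Tet1*, from 6 and 1, spans -1.14 to 7.43. On simulated data for the tumor genotype comparison (11547 genes, 200 of them changed) 97% of the changed genes had their true ratio inside the interval, and 100% of them were called. For the LN genotype comparison (10632 genes) these shares were 96% and 99.5%, for tumor over LN in control mice (11287 genes) 94% and 100%, and in CD8-IFNγRKO mice (11606 genes) 93% and 99%, each with 200 changed genes. The simulated counts were Poisson draws with changes well past the limit for a call, so nearly all were bound to be called. These shares do not bear on ratios near that limit or on the spread between animals.

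The members, the further gene lists and the tests were chosen with earlier results of these data known. All members are named, and of each further list the called genes with the 2 highest or 2 lowest ratios were eligible. Splits by cells without cycle, B cell or myeloid UMIs and the comparison matched on nuclear RNA were added after seeing the data. Promoters come from the RefSeq table for GRCm38.p6, which matched 35 of 41 members. The result of 1 further motif is not reported here.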

Additional observations from a re-analysis of the deposited data

How the results depend on the processing

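No paired analysis was possible because each group is 1 library and the labels carry no replicate numbers. With a log2 ratio of 1 for a call, members called higher and lower were 0 and 1 in the tumor genotype comparison, 3 and 6 in control and 4 and 9 in CD8-IFNγRKO mice for tumor over LN. With ribosomal, mitochondrial, TCR and heat shock genes left out of the library size, tumor over LN in control gave 4 and 22. In cells with no cycle UMI, members called higher were 3 for the tumor genotype comparison, 4 for tumor over LN in control and 5 in CD8-IFNγRKO mice. Among members called over all cells, the sign turned in tumor over LN for *Dnmt1* in control (-0.41). In CD8-IFNγRKO mice it turned for *Suz12* (-0.17), *Suv39h1* (-1.46) and *Hmga1* (-0.053). *Suv39h2*, higher but not called over all TILs, turned to -0.64 in the tumor genotype comparison. Between nuclear-rich tumor and nuclear-poor LN cells, members called lower in tumor were 6 in control and 7 in CD8-IFNγRKO mice. Among members called over all cells, the sign turned there for *Dnmt1* (-0.065) and *Kmt2a* (0.057) in control and *Ezh1* (0.19) and *Sirt1* (0.13) in CD8-IFNγRKO mice. In the LN genotype comparison, 1 member was called higher in thinned cells (*Dnmt3b*, 0.72) and 1 lower in cells without a B cell marker (*Uhrf1*, -0.54). With the cycle limit at 3 UMIs, 4 members were lower in S-leaning TILs of CD8-IFNγRKO mice, and with the limit at 8, 1 in G2M-leaning TILs. With the *Tcf7* gate on all UMIs, 3 members were higher and 3 lower in CD8-IFNγRKO TILs, 0 were lower in control TILs, and *Suv39h1* turned to 0.074 in control. With 1 UMI of *Ccl5* in place of 2, 4 members were lower in CD8-IFNγRKO and 1 in control LN, and *Suv39h2* turned to 0.10 in control. The cause of these moves was not tested. The shares of all genes called with a log2 ratio of 1, other cycle limits or gates, thinned cells or marker-free cells are not given. Counts under those settings are therefore not results about the members. Of 152 counts under alternatives, 130 stayed within 1.5 times the main count. With 1 library per group, no alternative gives the spread between animals.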
